A study of Mus musculus with 21 samples.

Results

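Transfer RNAs that carry leucine were followed through 3 assays of WT and NSun2−/− mouse skin. The members were all tRNA genes named for the isoacceptors LeuAAG, LeuCAA, LeuCAG, LeuTAA and LeuTAG, where the last 3 letters are the anticodon. They comprised 49 of 3283 tRNA genes counted by Pol III ChIP-seq, with 12 LeuAAG, 10 LeuCAA, 15 LeuCAG, 6 LeuTAA and 6 LeuTAG genes, and 31 of 1143 tRNA genes counted by tRNA-seq. Positions in the mm9 mouse genome were given for 18 of them, among 249 tRNA genes that the study listed as transcribed. Of the cytosines of those 18 genes, 258 were listed in at least 1 RNA bisulphite library, in 13 genes. The other Leu genes have no cytosine values here and were not analysed by bisulphite sequencing.

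Every sample was total back skin of male mice on a C57Bl6/J CBA F1 background, of about postnatal day 25, when hair follicles grow. NSun2−/− mice carried a constitutive gene trap in an intron of Nsun2, from 1 trapped clone. RNA bisulphite sequencing and tRNA-seq each had 4 WT and 4 NSun2−/− libraries from separate mice. Pol III ChIP-seq, with an antibody to the POLR3A subunit, had 2 WT libraries, 1 NSun2−/− library and 1 input per genotype, each from pooled mice. Nsun2 itself was not measured in these tRNA tables, so the genotype could not be checked from its transcript. Whole skin holds many cell types, and fewer cells of a type cannot be told apart from less tRNA per cell.

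NSun2 is an RNA methyltransferase that places a methyl group on carbon 5 of cytosine, mostly in tRNA and chiefly at the junction of the variable arm and the T arm. In tRNA LeuCAA it also methylates the first base of the anticodon, the wobble cytosine, a site next to an intron that is spliced out of the precursor. Leu tRNAs belong to the class with a long variable arm, an extra hairpin between the anticodon arm and the T arm, which they share with Ser tRNAs. Bisulphite turns unmethylated cytosine into uracil, so a cytosine still read as C is called unconverted, and counts as a candidate methylated base.

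The genes on which the results turn are shown 5′ to 3′ from the mm9 genome, in lower case with G26, the anticodon (positions 34 to 36), C48 and A58 in capitals. Position 49 is the first paired base of the T arm, and C48 lies directly before it. For each isoacceptor the gene with the highest Pol III signal in WT is given, with the LeuCAA gene whose C34 was read most deeply added at the end.
chr14.trna188-LeuAAG: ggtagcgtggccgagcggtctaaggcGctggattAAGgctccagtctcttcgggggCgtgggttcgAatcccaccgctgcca
chr11.trna1911-LeuCAA: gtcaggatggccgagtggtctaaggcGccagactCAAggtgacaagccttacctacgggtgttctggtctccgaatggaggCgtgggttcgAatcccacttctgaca
chr1.trna993-LeuCAG: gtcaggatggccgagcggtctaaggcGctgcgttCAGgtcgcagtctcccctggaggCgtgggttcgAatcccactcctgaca
chr10.trna1316-LeuTAA: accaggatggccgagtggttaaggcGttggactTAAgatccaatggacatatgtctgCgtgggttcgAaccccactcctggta
chr7.trna861-LeuTAG: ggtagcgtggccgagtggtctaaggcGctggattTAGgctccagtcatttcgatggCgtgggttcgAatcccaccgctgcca
chr13.trna65-LeuCAA: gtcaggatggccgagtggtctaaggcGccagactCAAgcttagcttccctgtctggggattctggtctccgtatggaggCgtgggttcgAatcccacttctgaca

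These genes lie at chr14:51683558-51683639 on the plus strand, chr11:58115976-58116082 on the minus strand, chr1:173031969-173032051 on the minus strand, chr10:12642369-12642451 on the minus strand, chr7:127978993-127979074 on the minus strand and chr13:21292073-21292177 on the plus strand. In the GENCODE annotation of the same build, chr10.trna1316-LeuTAA overlapped an exon of the long non-coding RNA gene B230208H11Rik on its own strand. The other 17 Leu genes with positions overlapped no annotated gene. The LeuCAA genes chr11.trna1911 and chr13.trna65 were interrupted after position 37 by introns of 23 and 21 bases, and both spliced to 84 bases, 1 base apart. The spliced LeuAAG and LeuTAG genes shown differed at 6 of 82 bases, at 1 of the first 33 bases and at none of the last 19. The sequence of chr1.trna993-LeuCAG occurred 5 times in the genome, and that of chr14.trna188-LeuAAG 3 times. All 18 genes held the letters GGTTCGA, the start of the B box of the internal Pol III promoter, in a search of both strands, as did 66.3% of the 249 tRNA genes.

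Such likeness limits how finely reads can be assigned. Total tRNA-seq counts ranged from 17352126 to 36749727 per library, and Leu genes took 0.239% ± 0.043 of them in WT and 0.177% ± 0.00977 in NSun2−/− (SD, n = 4 each). Of all Leu counts, 78.5% belonged to a sequence that was listed at more than 1 gene. Of the same counts, and partly the same reads, 12.2% matched another isoacceptor better than the one they were listed under. This concerned 64.6% of the 3′ counts listed under LeuCAA, whose sequences were closer to LeuCAG. Leu values were therefore tested by isoacceptor, and again by groups of sequences that match the same isoacceptors best. In these groups each sequence's counts were summed over its genes and divided by their largest common factor over all libraries. The origin of that factor is not known. No Leu cytosine was listed with fewer than 10 reads in a library, and the 95% exact binomial intervals given here cover counting error only.

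C34 of LeuCAA was mostly unconverted in WT and mostly converted in NSun2−/−. With the reads of the LeuCAA genes pooled, 11 of 11 reads were unconverted in WT 2 (100%, 95% interval 71.5 to 100), 18 of 28 in WT 3 (64.3%, 44.1 to 81.4) and 42 of 45 in WT 4 (93.3%, 81.7 to 98.6). No read was listed for WT 1. In NSun2−/− the values were 14 of 65 reads (21.5%, 12.3 to 33.5), 10 of 14 (71.4%, 41.9 to 91.6), 2 of 40 (5%, 0.611 to 16.9) and 21 of 66 (31.8%, 20.9 to 44.4) in libraries 1 to 4. The groups overlapped through NSun2−/− 2 alone, which lay above WT 3. All 14 reads of NSun2−/− 2 came from chr11.trna1911-LeuCAA, where C34 was not listed in any WT library. The pooled values thus mix differences between genes with those between genotypes. The means were 85.9% ± 19.0 (SD, n = 3) and 32.4% ± 28.2 (SD, n = 4), with p = 0.114 by an exact permutation test (two-sided), where the smallest p this design allows is 0.0571.

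Library NSun2−/− 2 also stood apart at the cytosines 5′ of the LeuCAA anticodon, which serve as a measure of incomplete conversion. They were 55.0% unconverted there, against 20.2%, 2.39% and 26.4% in NSun2−/− 1, 3 and 4, and 7.79%, 1.38% and 14.5% in WT 2, 3 and 4. The 55.0% came from chr11.trna1911-LeuCAA alone, where NSun2−/− 1, 3 and 4 had 21.5%, 3.69% and 29.5% and WT had no value. With the background of each library subtracted, C34 was 78.0% ± 14.7 in WT and 6.44% ± 6.85 in NSun2−/−. The groups then no longer overlapped, and the exact permutation p was 0.0571, the smallest possible. The genes behind these values still differed between libraries. Over all Leu genes, the cytosines 5′ of the anticodon were 8.01% ± 5.18 unconverted in WT and 25.5% ± 21.8 in NSun2−/− (n = 4 each, exact permutation p = 0.114). The mean background was thus higher in NSun2−/−, where C34 was lower, and its part in the result was not tested further. In NSun2−/− 3, with a background of 2.39%, C34 was 5% unconverted.

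**Figure D1:**
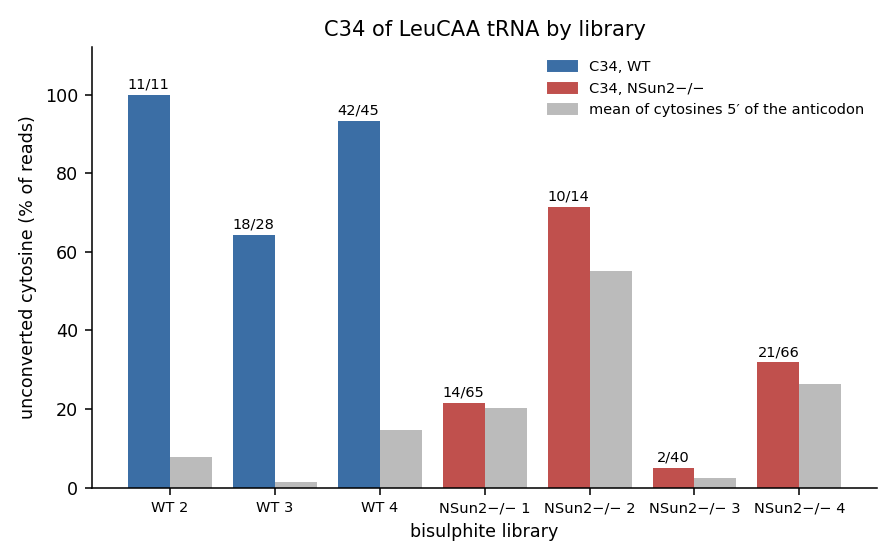
Percent of reads with an unconverted C34 in LeuCAA tRNA (coloured bars, with unconverted over all reads above) and mean percent at the cytosines 5′ of the anticodon (grey bars), by bisulphite library. The WT bars reach 64.3% to 100% over grey bars of at most 14.5%, while in each NSun2−/− library the bars for C34 and background lie closer together.

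Single LeuCAA genes differed in their values at C34. At chr13.trna65-LeuCAA, where C34 lies at position 21292107 of chromosome 13, the values were 100%, 73.3% and 85.7% in WT 2, 3 and 4, and 7.14%, 4.17% and 38.5% in NSun2−/− 1, 3 and 4. The groups did not overlap. The difference was −69.8 percentage points (edgeR quasi-likelihood test of unconverted and converted reads, Benjamini-Hochberg adjusted p = 0.0281). At chr13.trna85-LeuCAA, C34 was 53.8% and 96.8% unconverted in WT 3 and 4, and 53.8% and 37.5% in NSun2−/− 1 and 4. At chr11.trna1911-LeuCAA only NSun2−/− libraries had reads, from 6.25% to 71.4%. The wobble cytosine of LeuCAG, which has the same base at position 34, was nearly fully converted in both genotypes, with at most 1 of 12 reads unconverted in WT and 2 of 26 in NSun2−/−. At chr1.trna993-LeuCAG the test gave a difference of −2.78 percentage points (adjusted p = 1).

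C48, at the junction of the variable arm and the T arm, was the Leu cytosine seen most widely. It was listed in 13 Leu genes with 10 to 103 reads per library, and 4 of them had enough libraries for a test. In Leu tRNAs positions 49 and 50 are not cytosines, so that C48 was the only site of the junction. At chr11.trna1911-LeuCAA (position 58116001 of chromosome 11) C48 was 62.5%, 46.2% and 89.6% unconverted in WT 1, 2 and 4, and 8.74%, 56%, 1.98% and 12.1% in NSun2−/− 1 to 4. NSun2−/− 2 lay within the WT range, and the other 3 lay below it. The means fell from 66.1% to 19.7% (edgeR, adjusted p = 0.0352).

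At chr7.trna861-LeuTAG (position 127979018 of chromosome 7) every read of WT 1, 3 and 4 was unconverted, 12 of 12, 15 of 15 and 17 of 17 (lower 95% bounds 73.5%, 78.2% and 80.5%). In NSun2−/− 1, 3 and 4 the values were 45.8%, 30.8% and 46.4%, with no overlap, and the mean fell to 41.0% (edgeR, adjusted p = 0.0102). At chr13.trna65-LeuCAA the 4 WT libraries ranged from 41.2% to 77.8% and the 4 NSun2−/− libraries from 3.90% to 27.3%. These groups did not overlap either, but the difference between 58.7% and 14.9% had an adjusted p of 0.0912 (edgeR). At chr1.trna993-LeuCAG C48 was 33.3%, 64.3% and 58.3% in WT and 25.9%, 23.5% and 28.6% in NSun2−/−, a difference of −26.0 percentage points (edgeR, adjusted p = 1).

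Averaged over the 4 tested genes in each library, C48 was 60.3%, 43.7%, 80.7% and 79.6% unconverted in WT 1 to 4, and 23.3%, 41.6%, 15.0% and 25.7% in NSun2−/− 1 to 4. Each WT library lay above each NSun2−/− library, though WT 2 and NSun2−/− 2 lay close together, each with reads at 2 of the 4 genes. The means were 66.1% ± 17.6 and 26.4% ± 11.1 (SD, n = 4 each; exact two-sided permutation p = 0.0286, the smallest possible). With the LeuCAA pair of these genes alone, the means were 63.9% and 17.3% (same p). With the 5′ background subtracted, which leaves out genes and libraries without one, they were 44.9% ± 15.7 and 0.925% ± 5.33 (same p). The genotypes then rest on different genes, so this is not a correction of the same 4 genes. Background values for chr11.trna1911-LeuCAA existed in NSun2−/− libraries only, and NSun2−/− 2 held that gene alone. WT 1 held chr1.trna993-LeuCAG alone and WT 2 chr13.trna65-LeuCAA alone.

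**Figure D2:**
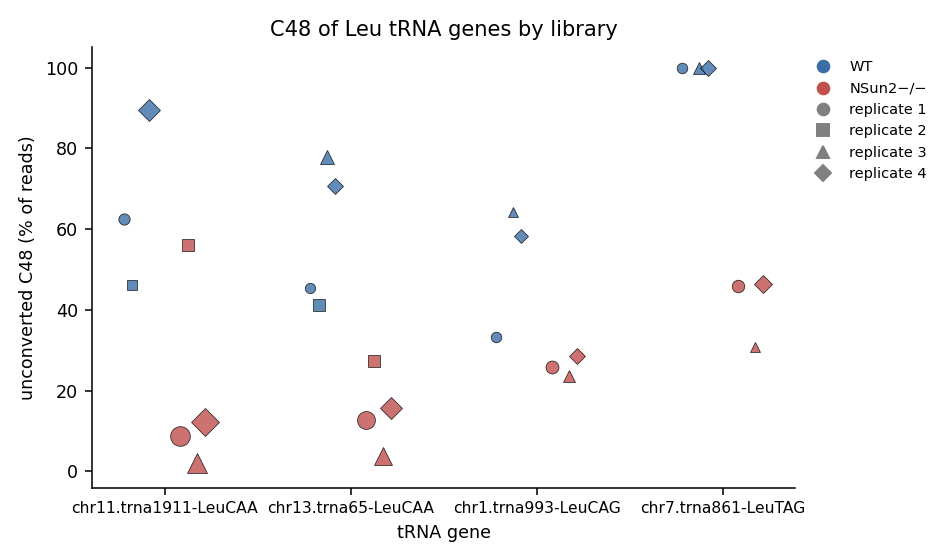
Percent of reads with an unconverted C48 in the 4 tested Leu genes, by bisulphite library (blue, WT; red, NSun2−/−; symbol, replicate; larger symbols, more reads). NSun2−/− points lie below the WT points in every gene except replicate 2 of chr11.trna1911-LeuCAA, at 56%.

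The remaining genes had too few libraries for a test and are given as values. C48 of chr13.trna85-LeuCAA was 69.2% and 32.4% in WT 3 and 4 and 6.38% to 12.5% in 3 NSun2−/− libraries. C48 of chr13.trna998-LeuCAA was 70% in WT 3 and 0% to 20% in 3 NSun2−/− libraries, and that of chr10.trna1316-LeuTAA was 80% in WT 1 and 0% to 41.7% in 3 NSun2−/− libraries. C48 of chr11.trna401-LeuTAG was 53.8% and 30.8% in WT 3 and 4, and 29.2%, 0% and 12.5% in NSun2−/− 1, 3 and 4. In NSun2−/− alone, C48 was 18.2%, 0% and 18.2% at chr1.trna698-LeuCAG, 0% at chr19.trna638-LeuTAA and 35.7% at chr8.trna1008-LeuCAG. The LeuTAG gene chr14.trna703 differed from the genes with WT values above. Its C48 was 83.3% and 80% unconverted in WT 3 and 4, and still 81.2% and 71.4% in NSun2−/− 1 and 3, over a background of 25.1% and 3.17% in those 2 libraries. For LeuAAG, C48 was listed in a single library, with 6 of 12 reads unconverted at chr13.trna62 in NSun2−/− 1.

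Across all 51 Leu cytosines that could be tested, 3 were lower in NSun2−/− by edgeR (adjusted p under 0.05 and a fall of at least 10 percentage points) and 0 were higher. These were the C34 and the pair of C48 sites described above. Of all 122736 cytosines tested, 0.147% were called lower. Most of the cytosines tested are not in tRNA genes, but 108 of the 180 called lower are. Among the 1549 tested cytosines of tRNA genes the share called lower was 6.97%, which 3 of 51 does not exceed. At position 48 of the other tRNA genes, 40 of 75 were called lower, with a median difference of −37.2 percentage points. The 3 Leu calls were sensitive to single libraries. Leaving out 1 library at a time gave 0 to 4 Leu calls, with 0 when WT 1, WT 3, WT 4, NSun2−/− 1 or NSun2−/− 4 was left out. Inside the variable arm of chr1.trna993-LeuCAG, the cytosines 48, 50 and 51 bases from the 5′ end were 8.33%, 33.3% and 27.1% unconverted in WT and 7.51%, 27.5% and 26.2% in NSun2−/− (edgeR, adjusted p = 1 each). In its anticodon stem, the cytosine 42 bases from the 5′ end was 29.8% and 26.6% unconverted (edgeR, adjusted p = 1).

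Pol III signal at each bound Leu gene differed by less than 2-fold between NSun2−/− and the mean of the WT libraries. A gene was called bound when both WT libraries had at least 10 reads and their mean, scaled to library counts, was at least 2 times the WT input. By this rule 18 of 49 Leu genes were bound, 5 LeuAAG, 4 LeuCAA, 4 LeuCAG, 3 LeuTAA and 2 LeuTAG, against 226 of all 3283 tRNA genes and 19 of 1299 Ser genes. Of the 18 bound Leu genes, 16 had genome positions. The mitochondrial gene chrM.trna1-LeuTAA, which Pol III does not transcribe, was not bound, with input at or above the ChIP level. The 18 bound Leu genes accounted for 5.53% of WT 1, 6.64% of WT 2 and 7.39% of NSun2−/− ChIP counts. They held 0.917% and 0.497% of the WT and NSun2−/− inputs. The rule for bound genes itself leaves out genes with high WT input, so these shares do not measure enrichment of all Leu genes. The unbound chr1.trna701-LeuCAG alone had 154 WT input counts, against 146 for the 18 bound genes together.

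The strongest signal was at chr7.trna861-LeuTAG, with 7649 and 8505 reads per 1000000 counted reads (RPM) in WT and 10619 in NSun2−/− (95% Poisson interval 9974 to 11295). It was followed by chr11.trna1911-LeuCAA, with 3798 and 9662 in WT and 8695 in NSun2−/−. At this gene the NSun2−/− value lay between those of the WT libraries. Genes of identical sequence could differ widely, with shared reads split by the authors in proportion to each locus's unique reads. In WT, chr14.trna188-LeuAAG had 5506 and 6399 RPM, while chr13.trna62-LeuAAG and chr11.trna2021-LeuAAG had at most 1806. Among LeuCAA genes, chr13.trna65 had 5534 and 6304 and chr13.trna85 had 1655 and 934.

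The log2 ratio of NSun2−/− to the WT mean was above 0 at 13 bound Leu genes and below 0 at 5, with a median of 0.24 and a range from −0.76 at chr13.trna85-LeuCAA to 0.61 at chr10.trna1316-LeuTAA. No bound Leu gene differed by 2-fold from the WT mean, while 1.33% of the 226 bound genes did. Against WT 1 alone, the log2 ratio was 1.19 at chr11.trna1911-LeuCAA, 1.16 at chr10.trna1316-LeuTAA and −1.11 at chr13.trna85-LeuCAA. Against WT 2 alone no bound Leu gene differed by 2-fold. The median of all bound genes was 0.16. When the libraries were scaled by their counts at bound genes instead of by all counts, the Leu median was 0.03. With 1 NSun2−/− library there is no replicate and no test, and the WT libraries themselves differed with an SD of 0.56 on the log2 scale at these genes.

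**Figure D3:**
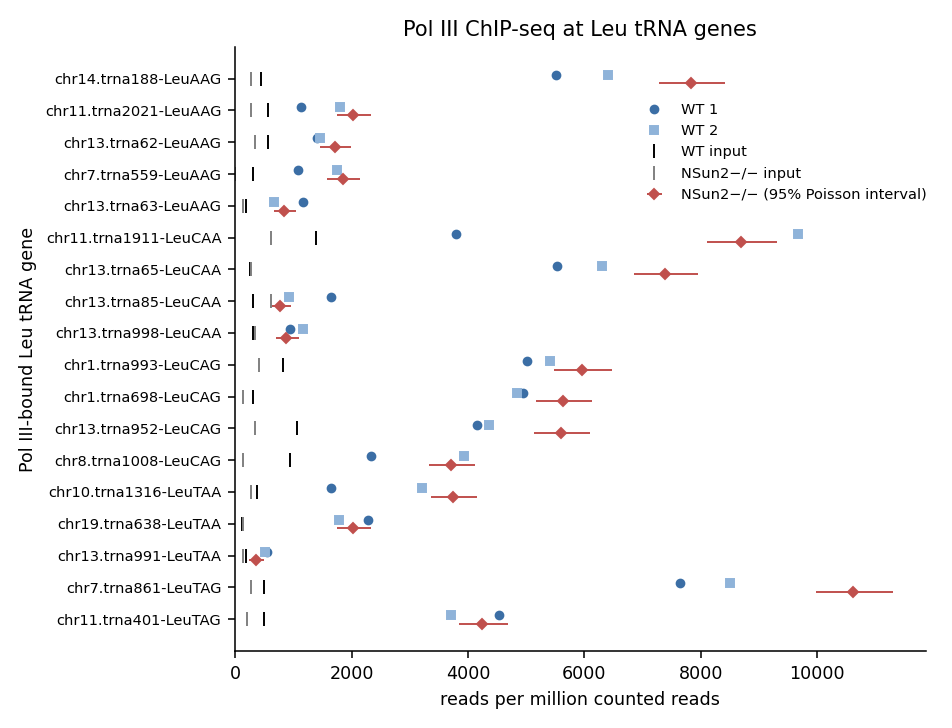
Pol III ChIP-seq signal at the 18 bound Leu genes, in RPM, for 2 WT libraries, the NSun2−/− library with its 95% Poisson interval, and both inputs (ticks). Signals run from 357 at chr13.trna991-LeuTAA to 10619 at chr7.trna861-LeuTAG in NSun2−/−, and the WT and NSun2−/− points of a gene lie near each other compared with the spread among genes.

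The 5′ tRNA fragments, reads of 25 to 40 nt that begin at the first base of the tRNA, were tested by the isoacceptor under which they were listed. They were lower in NSun2−/− for LeuAAG and showed no call for the other Leu isoacceptors. The LeuAAG counts were 1529, 1116, 2076 and 2237 in WT and 950, 1756, 1139 and 985 in NSun2−/−. In counts per 1000000 library counts (CPM), these were 85.2, 64.3, 85.5 and 99.7 in WT and 47.8, 47.8, 48.1 and 56.1 in NSun2−/−, without overlap. The means were 83.7 ± 14.6 and 50.0 ± 4.10 CPM (SD, n = 4 each). After TMM scaling the log2 fold change was −0.66 (SE 0.23, edgeR adjusted p = 0.0412). LeuTAG had 71.0 ± 14.0 CPM in WT and 39.3 ± 19.1 in NSun2−/−, with a log2 fold change of −0.77 (SE 0.29, edgeR adjusted p = 0.0623). Here NSun2−/− 2, at 67.0 CPM, lay within the WT range of 53.1 to 83.5 CPM.

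Reads matching LeuAAG or LeuTAG best, with the common factor taken out, gave 471, 438, 586 and 705 reads in WT and 295, 662, 310 and 249 in NSun2−/−. The log2 fold change of this joint group was −1.01 (SE 0.23, edgeR adjusted p = 0.0227), in a test in which 35.4% of 48 sequence groups were called. LeuTAA had 42.1 ± 5.56 CPM in WT and 31.3 ± 6.75 in NSun2−/− (log2 fold change −0.34, adjusted p = 0.24), LeuCAG 878 ± 210 and 924 ± 116 (0.16, adjusted p = 0.579), and LeuCAA 23.8 ± 8.65 and 27.9 ± 9.67 (0.32, adjusted p = 0.384, all edgeR). Thus 1 of 5 Leu isoacceptors was called, against 26.2% of all 42 isoacceptors, so the Leu share was no larger than that of tRNAs at large. Those 11 calls were 9 higher and 2 lower, and 9 higher and 6 lower on library totals. At single genes 1 of the 18 tested Leu genes was called, chr11.trna2021-LeuAAG with a log2 fold change of −0.90 (edgeR adjusted p = 0.0479), against 29.6% of 216 genes. It had only 60, 76, 65 and 87 counts in WT and 34, 91, 29 and 25 in NSun2−/−. Most LeuAAG 5′ counts were listed at chr13.trna63-LeuAAG, with 1469, 1040, 2011 and 2150 in WT. That gene was not called on its own (−0.58, edgeR adjusted p = 0.0899). The LeuAAG call was lost without WT 3, WT 4, NSun2−/− 1 or NSun2−/− 3, where adjusted p was 0.0686 to 0.146, and the direction held in each.

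**Figure D4:**
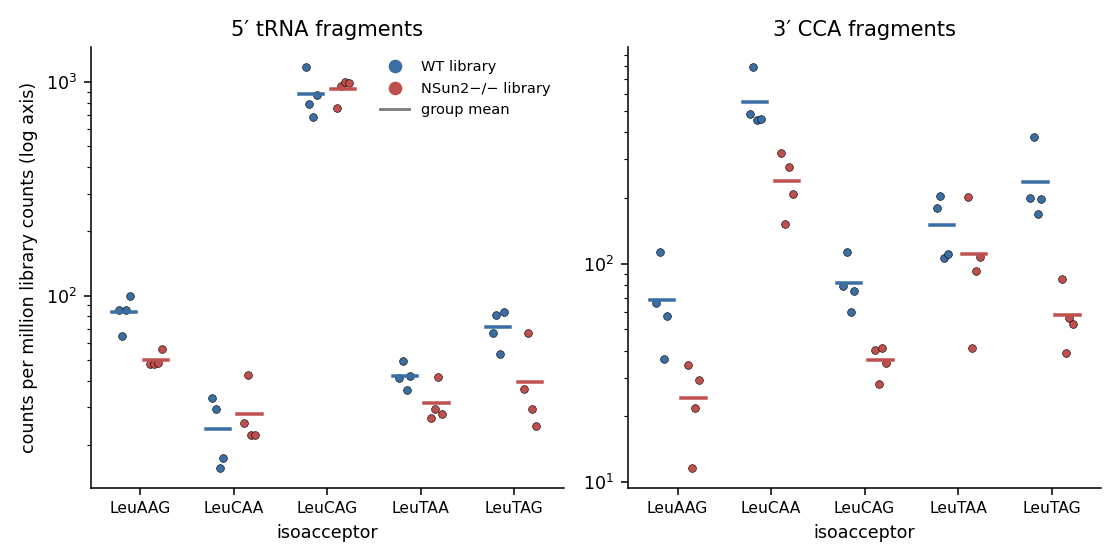
CPM of 5′ tRNA fragments (left) and 3′ CCA fragments (right) for the 5 Leu isoacceptors, on a log axis, for each WT (blue) and NSun2−/− (red) library, with lines at the group means. The LeuAAG 5′ fragments separate at 64.3 to 99.7 against 47.8 to 56.1, LeuCAG 5′ fragments overlap, and 3′ fragments are lower in NSun2−/− for each isoacceptor but LeuTAA, whose libraries overlap.

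By level, LeuCAG led the 5′ fragments, and the other Leu isoacceptors lay within a range of 15.7 to 99.7 CPM in WT. The leading LeuCAG read was listed at 8 genes and its counts were summed over them. With the common factor taken out, LeuCAG had 1126 to 1491 reads in the WT libraries. LeuAAG with LeuTAG had 438 to 705, LeuTAA 448 to 610 and LeuCAA 380 to 542. The last 3 overlapped in range and cannot be ordered. Of LeuAAG 5′ counts 100% carried a common factor, but only 17.9% belonged to a sequence listed at more than 1 gene. The factor thus does not follow the number of genes alone, and levels compared in this way are approximate.

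The leading reads of each isoacceptor show where the fragments end and where they depart from the gene. They are given 5′ to 3′ as sequenced, with capitals at bases that differ from the closest gene and at the bases flanking a gap in the read.
LeuAAG, 5′: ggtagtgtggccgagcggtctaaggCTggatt
LeuCAA, 5′: gtcaggatggccgagtggtctaaggc
LeuCAG, 5′: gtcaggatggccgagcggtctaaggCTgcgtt
LeuTAA, 5′: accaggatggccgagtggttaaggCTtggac
LeuTAG, 5′: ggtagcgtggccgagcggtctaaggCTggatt
Listed under LeuCAA, 3′: tcgGatcccactcctgacacca
LeuTAG, 3′: tcgTatcccaccgctgccacca
LeuTAA, 3′: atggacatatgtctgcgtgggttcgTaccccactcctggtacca

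The leading 3′ read listed under LeuCAA was closest to chr1.trna993-LeuCAG, from which it differed at 1 base, and that listed under LeuTAG fits LeuAAG genes equally well. The leading 5′ read listed under LeuTAG also matches the start of chr14.trna188-LeuAAG, apart from its gap. A contrast between LeuAAG and LeuTAG 5′ fragments thus depends on where such reads were listed. The 5′ reads of LeuAAG, LeuCAG and LeuTAG lacked 2 bases at G26 and its neighbour and stopped before the anticodon. That of LeuCAA stopped before G26. LeuAAG and LeuTAG fragments ended mainly at position 33, the base before the anticodon, which held 86.8% ± 3.42 of WT reads and 87.4% ± 2.48 of NSun2−/− reads. LeuCAG fragments ended at 25, 33 or 34, with 31.5%, 31.5% and 26.6% of reads in WT and 24.7%, 39.1% and 23.7% in NSun2−/−. LeuTAA fragments ended at 32 or 33 in both genotypes.

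LeuCAA fragments differed in this respect. Ends at position 32, in the anticodon loop, made up 14.8%, 3.97%, 13.7% and 13.8% of LeuCAA 5′ reads in WT and 24.5%, 39.3%, 25.7% and 19.7% in NSun2−/−. The groups did not overlap, and NSun2−/− was higher. Ends at position 25 made up 48.8% ± 10.9 in WT and 27.1% ± 16.1 in NSun2−/−, with overlapping libraries. Of 24 end positions in Leu fragments that held at least 5% of the reads of their group in either genotype, in groups of at least 200 reads per library, 2 had groups that did not overlap, against 13.5% of 244 positions in all tRNAs, so the Leu share was near that of the background. The other was the start of 3′ fragments shared by LeuCAA and LeuCAG at position 59, with 27.3% ± 8.03 in WT and 16.9% ± 5.19 in NSun2−/−. Among 71 rarer Leu end positions 5 did not overlap, against 8.74% of 904 in all tRNAs, and each of these held at most 1.03% of reads in either genotype.

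**Figure D5:**
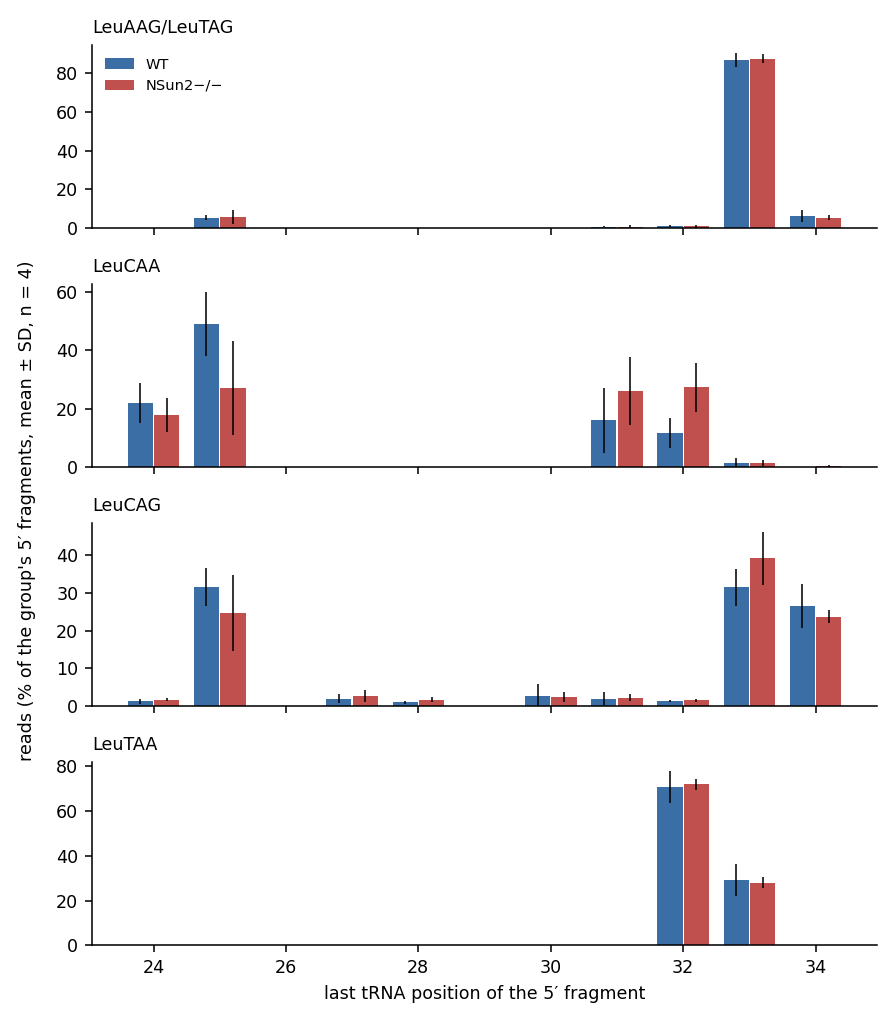
Last tRNA position of Leu 5′ fragments as a percent of the reads of each sequence group (mean ± SD, n = 4 WT and 4 NSun2−/− libraries), with sequences grouped by the isoacceptors they match best. LeuAAG and LeuTAG reads end at position 33, LeuTAA at 32 and 33, LeuCAG at 25, 33 and 34, and LeuCAA at 24, 25, 31 and 32 with more ends at 32 in NSun2−/−.

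The 3′ CCA fragments, reads shorter than the tRNA that end in the CCA added to its 3′ end, were a smaller share of all counts in NSun2−/−. Leu 3′ fragments made up 0.101%, 0.160%, 0.0825% and 0.0900% of the WT libraries and 0.0681%, 0.0272%, 0.0489% and 0.0433% of the NSun2−/− libraries. Each WT library lay above each NSun2−/− library, and the means were 0.108% ± 0.0354 and 0.0469% ± 0.0169 (exact permutation p = 0.0286, Benjamini-Hochberg adjusted over the 4 read classes 0.114). In contrast, Leu 5′ fragments held 0.110% ± 0.0221 and 0.107% ± 0.0123 (exact permutation p = 0.943). The Ser 3′ fragments, from the other class with a long variable arm, held 0.314% ± 0.166 in WT and 0.0917% ± 0.0530 in NSun2−/− with overlap (exact permutation p = 0.0571). The difference between the classes was not tested.

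The fall was not particular to Leu tRNAs. On library totals, the median log2 fold change of all 44 isoacceptors was −1.17 for 3′ fragments, while TMM scaling moved it to 0.11, so changes are given relative to that median. After TMM scaling LeuTAA was higher in NSun2−/−, with a log2 fold change of 0.73 (SE 0.19, edgeR adjusted p = 0.0236), and it was −0.44 on library totals (adjusted p = 0.408). The call was lost without WT 2, WT 4 or NSun2−/− 1, with edgeR adjusted p of 0.0798, 0.0710 and 0.0968. It was also lost when reads were grouped by best match with the common factor taken out (0.68, edgeR adjusted p = 0.0514). The LeuTAA CPM values were 180, 205, 106 and 111 in WT and 202, 41.2, 92.7 and 107 in NSun2−/−, which overlapped. LeuTAG moved the other way, with 237 ± 97.8 CPM in WT and 58.4 ± 19.3 in NSun2−/− without overlap. Its log2 fold change was −0.64 after TMM scaling (SE 0.25, edgeR adjusted p = 0.0915) and −2.02 on library totals (edgeR adjusted p = 0.0012).

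For LeuAAG, LeuCAA and LeuCAG the CPM values were also lower in NSun2−/− without overlap, 68.5 against 24.4, 547 against 239 and 81.5 against 36.2. Relative to the other tRNAs their log2 fold changes were −0.17, 0.15 and 0.28 (edgeR adjusted p = 0.619, 0.73 and 0.563). On library totals LeuAAG was −1.49 (edgeR adjusted p = 0.0171).

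Grouped by best match, the 3′ fragments gave another value for LeuCAA, where most listed counts were closer to LeuCAG. Reads closest to LeuCAA alone numbered 82, 54, 45 and 38 in WT and 82, 45, 40 and 49 in NSun2−/−, with a log2 fold change of 0.99 after TMM scaling (SE 0.29, edgeR adjusted p = 0.0514). Reads closest to LeuAAG or LeuTAG had −0.71 (SE 0.23, adjusted p = 0.0538), those closest to LeuCAG 0.16 (adjusted p = 0.735) and those fitting LeuCAA and LeuCAG equally 0.07 (adjusted p = 0.809, all edgeR). No Leu group was called, against 8.51% of 47 sequence groups.

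By the listed isoacceptor, 1 of 5 Leu isoacceptors was called after TMM scaling, LeuTAA, against 20.5% of all 44. The 9 calls overall were 5 higher and 4 lower, and on library totals 0 higher and 15 lower. At single genes 0 Leu genes were called for 3′ fragments by edgeR, against 6.49% of 154 genes. Those with the smallest p among the Leu genes, none of them called, included the 2 LeuTAG genes chr11.trna401 and chr7.trna861. Their log2 fold changes were −0.79 and −0.80 (edgeR adjusted p = 0.0803 each). The others were chr13.trna63-LeuAAG at −0.78 (edgeR adjusted p = 0.117) and chr10.trna1316-LeuTAA at 0.59 (edgeR adjusted p = 0.105).

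The shapes of the 3′ fragments differed by isoacceptor. Those of LeuTAG and LeuAAG were mainly 22 nt reads that start at position 55 in the T loop. The leading LeuTAG read, shown above with T in place of A58, was counted 1574, 3399, 2199 and 2024 times in WT and 899, 699, 549 and 499 times in NSun2−/−. LeuTAA instead gave reads of about 44 nt that hold the whole variable arm and the T arm, and the leading one was counted 350, 380, 240 and 220 times in WT and 460, 85, 205 and 175 times in NSun2−/−. The LeuTAG read was lower in each NSun2−/− library than in any WT library, and the LeuTAA read was not. These per-sequence counts were not tested.

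Full-length mature reads of Leu tRNA were nearly absent. Only LeuAAG had any, a single sequence of 85 nt listed at 3 genes with 144 counts in all 8 libraries. For LeuCAG, LeuTAA and LeuTAG no mature read was listed, so their levels were not measured. For LeuCAA the class had to be empty, since a read across the removed intron cannot be listed at a gene with that intron. Nothing about mature LeuCAA tRNA follows from this. No Leu call was made in this class, and edgeR called 0% of its 18 isoacceptors, with 2 at an unadjusted p under 0.05. DESeq2 called 0 of 20, with 4 at an unadjusted p under 0.05.

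LeuCAA also gave reads that had not lost the 3′ end of the precursor. Found after the data were examined, 8 sequences began exactly at the first base of the exon after the intron and ran past the end of the gene into the T run at which Pol III stops. The 2 most counted, 1 from each gene, are shown with the bases past the gene end in capitals.
chr11.trna1911-LeuCAA, 3′ exon: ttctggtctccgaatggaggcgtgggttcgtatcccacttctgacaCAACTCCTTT
chr13.trna65-LeuCAA, 3′ exon: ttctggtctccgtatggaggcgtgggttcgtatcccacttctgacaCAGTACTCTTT
Together they had 75, 82, 89 and 81 counts in WT and 100, 96, 90 and 21 in NSun2−/−. This came to 4.05 ± 0.52 CPM and 3.16 ± 1.64 CPM (SD, n = 4 each; exact permutation p = 0.371). The libraries overlapped, and NSun2−/− 4 was the lowest. All 8 sequences hold C48 and position 58, where the pair shown read T in place of A.

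Reads that differ from the gene mark bases whose modification stops or misleads reverse transcriptase, such as the dimethylated G26 and methylated A58 of many tRNAs, and inosine, read as G, at the wobble base of tRNAs with an A34 gene. LeuAAG reads that reached position 34 read G in place of A in 100% of counts in each of the 8 libraries. At G26, LeuTAA reads carried T in 71.9% and A in 15.3% of WT reads with the common factor taken out, whereas LeuCAG reads lacked the base in 58.4%. The base read at A58 is given by the isoacceptors that a 3′ read matches best. Reads closest to LeuCAG, 1854 to 8018 per library, read G in 81.4% ± 2.71 of WT and 78.9% ± 7.59 of NSun2−/− reads (SD, n = 4 each). Their leading sequence, with G at this base, was listed under LeuCAA and had 3001, 6155, 5813 and 5281 counts in WT. Reads listed under LeuCAG itself kept A in 75.4% and read G in 3.76% of pooled WT reads. Those fitting LeuCAA and LeuCAG equally read T in 51.1% ± 2.25 and G in 23.6% ± 0.765 in WT. The base read at A58 of LeuCAG thus depends on how reads are assigned. Reads closest to LeuAAG or LeuTAG mostly read T, in 64.3% ± 3.91 and 66.6% ± 8.69, and those closest to LeuCAA did so in 63.4% ± 4.80 and 55.2% ± 6.01, with only 38 to 82 reads per library. LeuTAA kept A in 31.3% ± 3.86 and 33.6% ± 3.33. At none of the 4 bases did the genotypes separate in any of these groups. LeuCAG also read T in 91.1% of WT and 88.0% of NSun2−/− reads at a cytosine of the variable arm 7 bases before C48.

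None of the deeply read signatures separated the genotypes. By the isoacceptor under which reads were listed and with at least 1000 counts in each library, 5 Leu positions had a mismatch rate of 5% or more, and 0 of them had groups that did not overlap, against 22.7% of 110 positions in all tRNAs. A58 mismatched in 88.1% ± 1.44 of WT and 87.8% ± 1.83 of NSun2−/− counts listed under LeuCAA, most of them closer to LeuCAG. The values were 68.7% ± 3.80 and 66.7% ± 3.14 at A58 of LeuTAA, and 80.8% ± 4.98 and 77.7% ± 4.33 at G26 of LeuCAG. With 200 counts as the minimum, 2 of 20 Leu positions did not overlap, both higher in NSun2−/−. Of 179 such positions in all tRNAs, 14 were lower and 18 higher without overlap, so the Leu share did not exceed that of the background. A58 mismatched in 38.6% ± 6.05 and 52.5% ± 4.60 of counts listed under LeuCAG, and in 61.9% ± 4.84 and 73.2% ± 6.02 of those listed under LeuAAG. With the common factor taken out and at least 200 reads, 0 of 11 Leu positions did not overlap. Of 131 such positions in all tRNAs, 13 were lower and 18 higher. No cytosine modification of C34 or C48 can be read from these reads, since methylation at carbon 5 leaves base pairing as it is.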

How the data were processed

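The authors counted Pol III ChIP-seq and tRNA-seq reads at tRNA genes predicted in mm9 after Bowtie alignment with multiple matches allowed, and deposited whole-number counts, for tRNA-seq per gene and read sequence. For RNA bisulphite sequencing they deposited, from Bismark 0.7.6, the percent and number of unconverted reads per cytosine. The members and lists used here were chosen with earlier results of these data known. Reads were placed on the gene sequence with edlib 1.3.9.post1, with up to 4 mismatches, in sense. A read was a 5′ fragment when it began at base 1 with 25 to 40 nt, mature when it ended in CCA and covered 90% of the gene, and otherwise a 3′ CCA fragment when it ended in CCA. Multi-mapped reads were counted in full at each gene, and many sequences carried a common factor in all libraries. An added alternative and the groups by best match took it out. Counts were summed by isoacceptor and fitted over all isoacceptors (or genes) with edgeR 4.0.16 (quasi-likelihood, TMM, filterByExpr). Cytosines with at least 10 reads in 3 libraries of each genotype were fitted as unconverted and converted counts in edgeR, over all 122736 cytosines. Single values were compared by exact permutation over libraries. Adjusted p is Benjamini-Hochberg with a threshold of 0.05. Alternatives were DESeq2 1.42.0, limma 3.58.1, library totals, other filters and read classes, and leaving out each library. On simulated data with known changes, the cytosine fit recovered 100 of 100 changes of 60 percentage points and 56 of 100 of 30. The simulation changed only more deeply read cytosines and gave libraries a small fixed spread. Leu sites such as C48 of chr11.trna1911-LeuCAA varied more between libraries, so this recovery does not carry over to them. Named are the isoacceptors, the Leu genes and cytosines passing the tests, C34, C48 and the most bound genes. Library numbers do not mark shared animals. That libraries came from separate mice is per the study's methods, and p-values cover their spread.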

Additional observations from a re-analysis of the deposited data

Results flagged for a closer look

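In 6 of 41 groups of 4 libraries, 1 library stood apart from the other 3 by the gap between it and its neighbour, where chance gives about 1 in 20 groups. Among NSun2−/− libraries the lowest share of Leu 5′ fragments was 0.0888% of counts, the highest LeuAAG 5′ value was 56.1 CPM, the highest LeuCAA 5′ value was 42.3 CPM and the lowest LeuCAG 5′ value was 752 CPM. Among WT libraries the highest LeuCAA 3′ value was 791 CPM and the highest LeuTAG 3′ value was 382 CPM, both in WT 2. The LeuAAG 5′ library still lay below each WT library.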

How the results depend on the processing

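The number of Leu isoacceptors called for 5′ fragments, 1 in the analysis reported, was 2 with DESeq2, with library totals, with reads of 30 to 40 nt, with no mismatch allowed and with the common factor of each sequence taken out, LeuTAG being added each time. It was 0 with a replicate block, where LeuAAG had an edgeR adjusted p of 0.146, and 0 to 2 when 1 library was left out. For 3′ fragments the 1 call, LeuTAA, became 2 with DESeq2 and with the replicate block, where LeuTAG was added, and 0 to 2 without 1 library. It also became 2 with library totals, but these were LeuAAG and LeuTAG, both lower, and LeuTAA was not called. Leu cytosines called lower, 3, were 1 with limma, 0 with the replicate block and 0 to 4 without 1 library. With at least 30 reads no Leu cytosine was left to test, and 119 cytosines were called in all instead of 180. The C48 difference, −39.6 percentage points, had an exact sign-flip permutation p of 0.125 with the replicate block, the smallest that 4 pairs allow, and was −47.1 to −34.8 without 1 library, each with an exact permutation p of 0.0571, the smallest possible there. Leu mismatch positions without overlap were 2 of 20 with at least 200 counts, against 14 lower and 18 higher of 179 in all tRNAs.

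Directions reversed only where no call stood, apart from LeuTAA. On library totals the 3′ log2 fold changes of LeuCAA, LeuCAG and LeuTAA were −1.20, −1.17 and −0.44. Leaving out 1 library gave LeuCAA −0.0672 to 0.293 and LeuCAG −0.0659 to 0.401, both below 0 without NSun2−/− 2 and LeuCAA also without WT 1, and with reads of 25 to 40 nt LeuAAG was 0.20. For 5′ fragments LeuCAA was −0.58 and LeuCAG −0.15 with no mismatch, and LeuCAG −0.10 with the common factor taken out. Leaving out 1 library gave LeuCAA −0.0820 (without NSun2−/− 2) to 0.415 and LeuCAG −0.12 (without NSun2−/− 4) to 0.25. The difference in Leu share of 5′ fragments ranged from −0.0101 to 0.00727 percentage points, above 0 without WT 1 or NSun2−/− 1. Over all isoacceptors, 5′ calls numbered 11, 18 with the common factor taken out and 3 without NSun2−/− 3, and 3′ calls 9, 15 on library totals and 3 without WT 2, WT 4 or NSun2−/− 1. Mature reads with or without CCA gave 1 call, not of Leu. Equal replicate numbers do not pair the samples: deviations of same-numbered libraries correlated at −0.48 to 0.15 for 5′ fragments and −0.41 to 0.43 for 3′ fragments. Depth limits the bisulphite values most, with C48 intervals of 6.73 to 59.9 percentage points. The common factor and the LeuCAA genes taken alone were chosen after seeing the data. The cause of these shifts was not tested.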
